A study of Rattus norvegicus with 180 samples.

Results

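The miRNAs described here are the products of a cluster of miRNA genes on the rat X chromosome: rno-miR-322, rno-miR-503, rno-miR-351, rno-miR-542-3p, rno-miR-542-5p and rno-miR-450a. They were taken by name from the 717 miRNA names of an Agilent rat miRNA array. All 6 names were found, and rno-miR-450a was also present under a second name with the suffix of an older miRBase release, rno-miR-450a_v15.0, which gave 7 members of 717. The arrays measured total RNA from male Sprague-Dawley rats aged 10 weeks, for which no treatment or genetic change is named. Rats 4, 5 and 6 were perfused with saline before 55 organs and tissues were taken. Rats 1, 2 and 3 were not perfused, and gave only liver, kidney, lung, heart atrium and heart interventricular septum. This made 60 groups of 3 arrays, 1 array for each rat and organ. The intestinal samples were scraped mucosa, and the label ischial nerve stands for the sciatic nerve.

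A miRNA guides a protein complex to messenger RNAs whose untranslated regions pair with its seed, the bases near its 5′ end, and lowers their output. miRNA genes that lie close together on one strand are often cut from one long primary transcript, so that the mature products can be made together, while each product may still be processed or degraded at its own rate. miR-322, the rodent counterpart of human miR-424, and miR-503 belong to the seed family of miR-15 and miR-16, which is known for lowering cell cycle proteins, and the pair has been studied in the differentiation of muscle. miR-351 shares the seed of miR-125. miR-542 and miR-450a have seeds of their own, and miR-542 leaves both arms of its hairpin as mature miRNAs. The adrenal gland holds the steroid-producing cortex and the catecholamine-producing medulla, and the whole organ was measured as one sample.

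In RefSeq's annotation of the rat build GRCr8, 6 hairpins of the cluster lie on the minus strand at chrX:137720933-137726241, within 5309 bases. In the direction of transcription the order is Mir322 (chrX:137726147-137726241), Mir503 (chrX:137725856-137725926), Mir351 (chrX:137725116-137725196), Mir542 (chrX:137722176-137722254), Mir450b-1 (chrX:137721078-137721146) and Mir450a1 (chrX:137720933-137721023). The first 3 hairpins are separated by 220 and 659 bases, a gap of 2861 bases follows, and Mir542 lies 1029 bases before Mir450b-1. The mature sequences from RefSeq show which members share a seed. Bases 2 to 8 are in capitals.
rno-miR-322-5p: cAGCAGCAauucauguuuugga
rno-miR-503-5p: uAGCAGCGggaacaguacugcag
rno-miR-16-5p: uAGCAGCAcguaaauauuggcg
rno-miR-351-5p: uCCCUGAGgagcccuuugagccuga
rno-miR-125b-5p: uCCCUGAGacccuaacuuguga
rno-miR-542-3p: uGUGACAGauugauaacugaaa
rno-miR-542-5p: cUCGGGGAucaucaugucacga
rno-miR-450a-5p: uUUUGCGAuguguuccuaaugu
rno-miR-450b-5p: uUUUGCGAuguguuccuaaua
The first 3 lines set miR-322 and miR-503 beside miR-16: miR-322 has the whole seed of miR-16, and miR-503 shares its first 6 bases. The next pair shows the seed that miR-351 shares with miR-125b. The last pair is shown because miR-450a and miR-450b have the same first 20 bases, while no array name held miR-450b (0 of 717), so the probes named rno-miR-450a may also have bound miR-450b. The array's names rno-miR-322, rno-miR-503, rno-miR-351 and rno-miR-450a were taken as the 5′ arms, as in older releases of miRBase. The sequence behind rno-miR-450a_v15.0 is not given in RefSeq, so that member is described by name only.

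Levels are given as scaled signal intensity, the background-corrected fluorescence after each array was brought to a common 75th percentile, with a floor of 3.30 for lower values. A member was called detected on an array when over 50% of the spots of at least 1 of its probe sequences lay well above background by the scanner software. An array of the 180 detected from 112 to 302 miRNAs, and 0 miRNA spots were saturated. Signal before scaling differed between organs: the 75th percentile was 64.5 to 89.9 on the 3 pancreas arrays and 1610 to 2585 on the 3 adrenal arrays, so low values in pancreas carry little information. Levels of different members cannot be set against each other, since each probe has its own response. The 3 arrays of a group came from 3 rats, and the errors measure the spread among them.

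The members differed widely in how many organs they reached. rno-miR-322 was detected on 159 perfused arrays and on all 3 arrays of 52 organs. rno-miR-450a was detected on all 3 arrays of 39 organs, rno-miR-542-5p of 25, rno-miR-542-3p of 19, rno-miR-503 of 11 and rno-miR-450a_v15.0 of 10. Among perfused arrays, rno-miR-351 was detected on all 3 of 1 organ, the adrenal gland. Otherwise it was detected on 2 perfused lung arrays and 1 array of ischial nerve, where its mean over 4 probe sequences lay at the floor. In lungs that were not perfused it was detected on all 3 arrays, also with its mean at the floor. All 7 members passed the filter for testing over the 55 organs, which asked for detection on all 3 perfused arrays of at least 1 organ. rno-miR-351 passed it through the adrenal gland alone. Levels differed among the 55 organs for 7 of 7 members (limma's test over all organs, Benjamini-Hochberg adjusted p at most 4.35e-45), as they did for 99.8% of all miRNAs tested.

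The adrenal gland held the highest mean of every member. rno-miR-322 reached 3498, 2746 and 2666 in rats 4, 5 and 6 (mean 2970.0 ± 459, SD, n = 3). In the lung, the next organ, it reached 868, 786 and 865 (839.9 ± 46.5). The 3 adrenal arrays therefore lay above every array of every other organ for rno-miR-322, and the lung arrays in turn lay above those of the remaining 53 organs. rno-miR-450a reached 782, 686 and 421 in the adrenal gland (629.7 ± 187) against 90.8, 79.1 and 112 in the lung (94.0 ± 16.6). rno-miR-450a_v15.0 reached 181, 169 and 94.0 in the adrenal gland (148 ± 47.1) and 24.1, 20.6 and 34.2 in the lung. Rat 6 had the lowest adrenal value of both miR-450a names, and still lay well clear of the other organs.

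Both arms of miR-542 followed the same order at the top. rno-miR-542-3p reached 359.6, 289.9 and 225 in the adrenal gland (291 ± 67.5), and 47.5, 59.5 and 45.6 in the testis, its second organ (50.9 ± 7.52). rno-miR-542-5p reached 254, 219.8 and 205 in the adrenal gland (226 ± 24.8), and 44.3, 69.5 and 53.9 in the testis (55.9 ± 12.7). For both arms the groups did not overlap. Against the median organ, the adrenal gland was 33.5-fold higher for rno-miR-542-3p, 33.4-fold for rno-miR-542-5p, 31.0-fold for rno-miR-450a and 24.9-fold for rno-miR-322. The folds of both miR-542 arms rest on faint median organs (8.69 and 6.77), since these arms were detected on all 3 arrays of only 19 and 25 organs. rno-miR-542-3p was picked by the authors as an adrenal miRNA from these same arrays, so its level there is a description and no independent evidence.

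**Figure D1:**
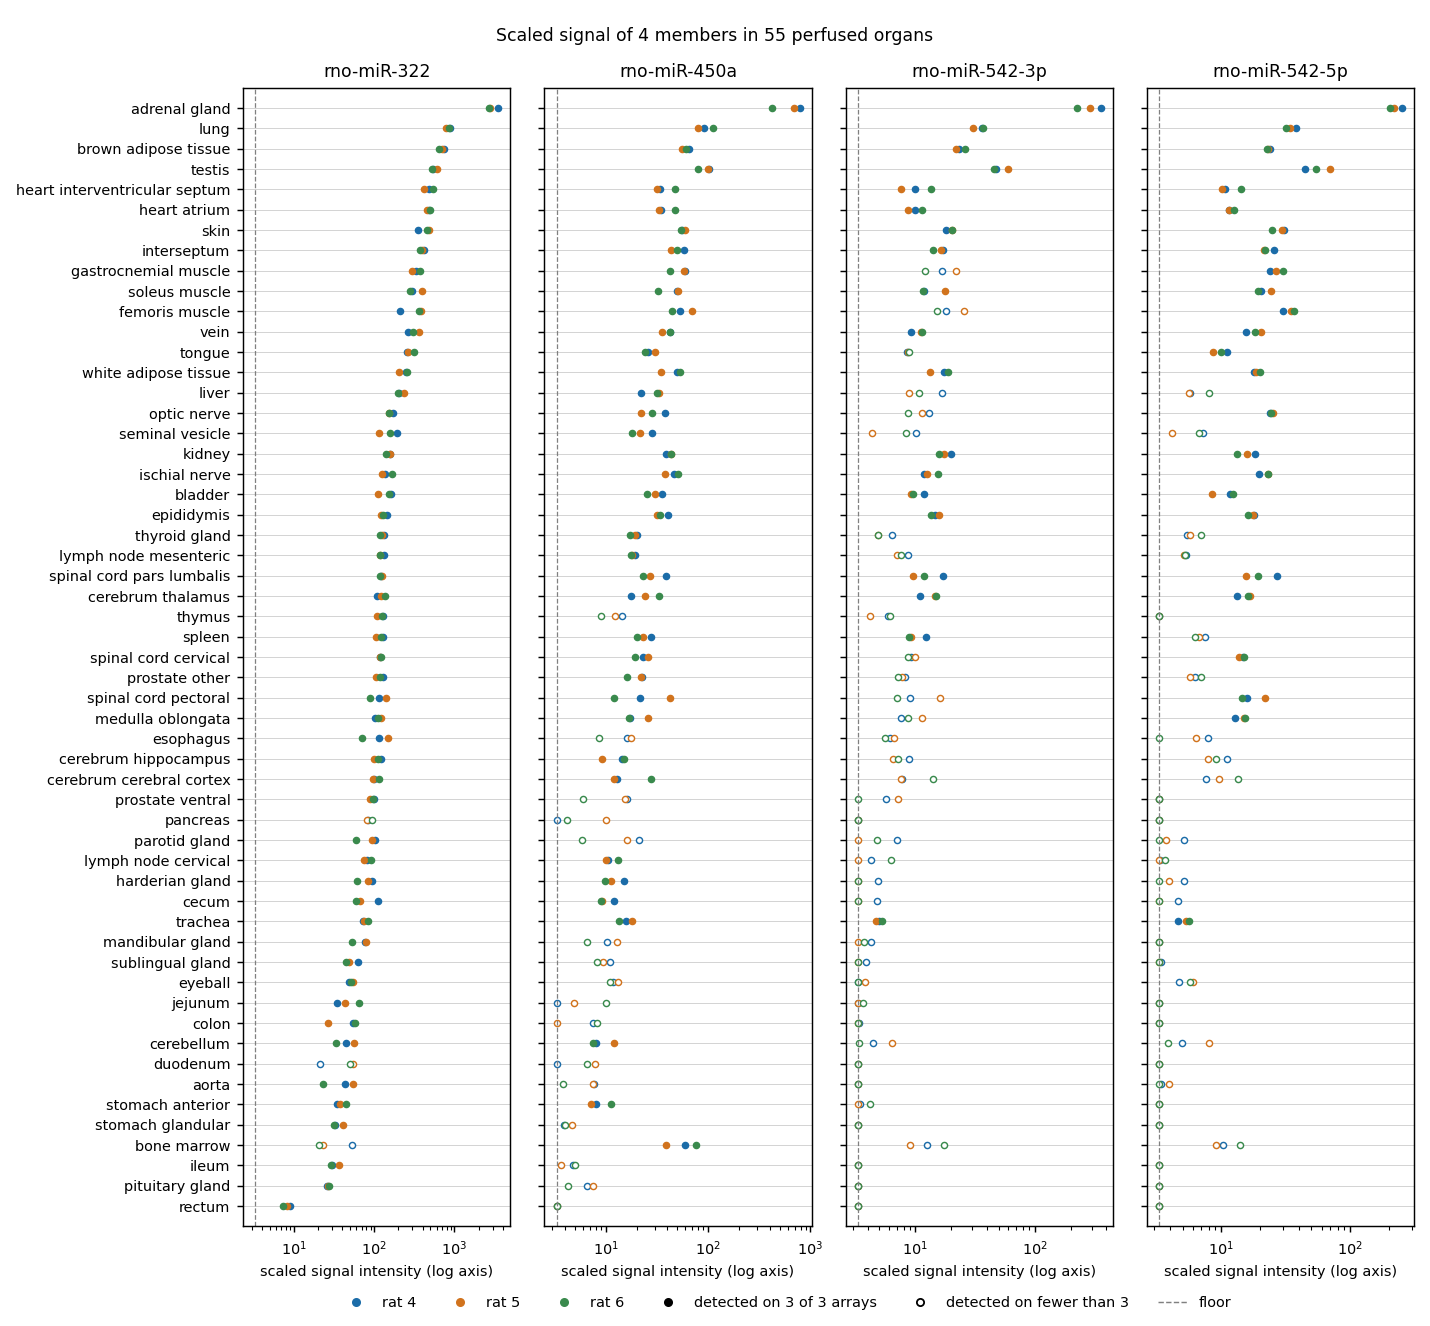
Scaled signal intensity (log axis) of rno-miR-322, rno-miR-450a, rno-miR-542-3p and rno-miR-542-5p in the 55 perfused organs, ordered by the mean of rno-miR-322; each point is 1 rat, filled where the member was detected on all 3 arrays of the organ, and the dashed line is the floor of 3.30. The adrenal gland stands apart at the top of each panel, at 2666 to 3498 for rno-miR-322, and the intestinal mucosa and both stomach samples lie in the lower part.

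rno-miR-351 and rno-miR-503 were faint even there. rno-miR-351 reached 36.6, 32.0 and 25.7 in the adrenal gland (31.5 ± 5.49), while the highest array of any other organ, from testis, gave 3.71. rno-miR-503 reached 59.4, 16.7 and 19.3 in the adrenal gland (31.8 ± 23.9), and rat 4 set its place. In skin it reached 22.8, 26.3 and 21.6 (23.6 ± 2.45), in brown adipose tissue 23.5, 20.2 and 25.1, and in lung 22.7, 22.5 and 22.7. These 3 organs overlapped the adrenal gland, and without rat 4 the adrenal mean of rno-miR-503 was 18.0, rank 4 of 55, with skin first at 23.9, while the other 6 members kept the adrenal gland first without any 1 rat.

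Against the mean of the 54 other organs, 7 of 7 members were called higher in the adrenal gland by limma with Benjamini-Hochberg adjustment, where 27.9% of all miRNAs tested were called higher. rno-miR-351 had to differ, since it entered the test through the adrenal gland alone, and without it 6 of 6 were called. These 6 include rno-miR-542-3p, picked by the authors as adrenal from these same arrays, so its call is no independent evidence. The median log2 difference of the members was 4.68, against -0.15 over all miRNAs. The difference was 5.21 (SE 0.17) for rno-miR-542-3p, 5.03 (SE 0.24) for rno-miR-450a, 4.75 (SE 0.13) for rno-miR-542-5p, 4.68 (SE 0.17) for rno-miR-322 and 4.60 (SE 0.20) for rno-miR-450a_v15.0. By size these 5 held ranks 1, 2, 4, 5 and 6 among all miRNAs tested. Rank 3 was held by rno-miR-322*, the other arm of miR-322 (4.95, SE 0.17). Sizes and their order depend on floor and background. A floor 4 times as high gave 4.71 for rno-miR-450a, 4.67 for rno-miR-322, 4.30 for rno-miR-542-3p and 3.84 for rno-miR-542-5p. Normexp background correction on median signals gave 3.64 for rno-miR-322, 2.52 for rno-miR-450a, 1.71 for rno-miR-542-3p and 1.41 for rno-miR-542-5p. rno-miR-351 came to 3.24 (rank 31) and rno-miR-503 to 2.42 (rank 43). These sizes moved further with the processing. rno-miR-351 came to 1.24 with a floor 4 times as high and to 6.12 in the values normalized by the authors, rno-miR-503 to 0.97 and 4.06. For rno-miR-351 nearly every other organ lay at the floor, so its small SE of 0.026 rests on the floor. With normexp background correction on median signals, the difference was -0.26 for rno-miR-351 and -0.22 for rno-miR-503, so neither direction holds under every alternative, while those of the other 5 members do. The highest adjusted p of the 7 members was 1.14e-31, for rno-miR-503.

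Organ by organ, the adrenal gland was called higher in 375 of 378 comparisons of a member with another organ, against 29.1% of such comparisons over all miRNAs. Without rno-miR-351, whose 54 calls follow from the filter, it was 321 of 324, among them 54 for rno-miR-542-3p, picked from these same arrays. The 3 that missed were rno-miR-503 against skin, brown adipose tissue and lung (log2 differences 0.19, 0.23 and 0.24, each SE 0.20, lowest adjusted p = 0.378). With normexp background correction on median signals, 237 of the 378 comparisons were called. The organ nearest to the adrenal gland was the lung for rno-miR-322, at a difference of 1.81 log2 units (SE 0.24). It was the testis for rno-miR-542-3p (2.50, SE 0.24) and rno-miR-542-5p (2.04, SE 0.18). For rno-miR-450a lung and testis lay equally near (both 2.71, SE 0.34). Where a member was detected on no array of an organ only a lower bound can be given, against the lowest signal called detected on those arrays or, where higher, the member's own floored value. For rno-miR-542-3p, over 22 such organs, the adrenal gland was at least 2.54-fold (pancreas) to at least 86.7-fold (rectum) higher. For rno-miR-450a, over 5 such organs, the bounds ran from at least 5.41-fold (pancreas) to at least 185-fold (rectum). For rno-miR-503 and rno-miR-351 against pancreas no bound could be given. The lowest signal called detected there (log2 6.82) lay above their adrenal levels (4.74 and 4.96), so these calls carry no measured difference.

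**Figure D2:**
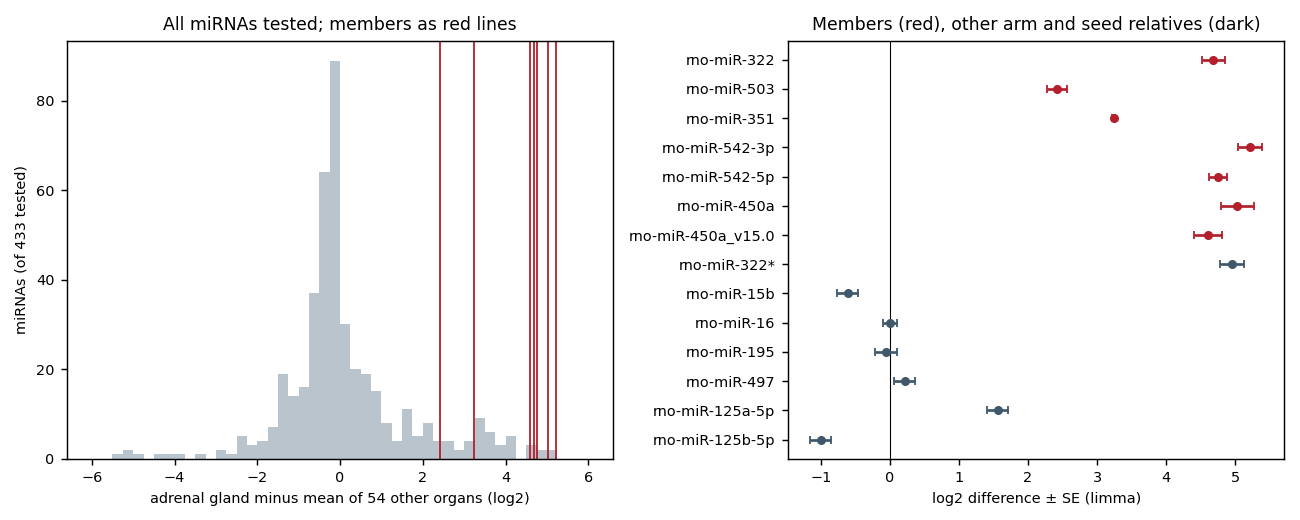
Left, histogram of the log2 difference between the adrenal gland and the mean of the 54 other organs for all miRNAs tested, with the 7 members as red lines; right, the same difference with its SE (limma) for the members (red), rno-miR-322* and 6 seed relatives (dark). Members run from 2.42 to 5.21, while the seed relatives lie between -1.0 and 1.56.

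Each adrenal array lay on its own slide beside 7 arrays of other organs. Within those slides rno-miR-322 was higher in the adrenal gland by 5.50, 5.30 and 4.16 log2 units in rats 4, 5 and 6, and rno-miR-542-3p by 5.89, 5.65 and 4.78. Every member lay above all 7 other arrays on each of the 3 slides. Of the 16 probe sequences of the members, 15 gave their highest mean in the adrenal gland. Both sequences of rno-miR-322 (4.71 and 4.66), of rno-miR-542-3p (5.23 and 4.96) and of rno-miR-542-5p (4.68 and 4.78) gave like differences. For rno-miR-450a the 2 sequences gave 3.70 and 5.03, the former being detected on 6 perfused arrays and the latter on 137. Of the 4 sequences of rno-miR-351, 1 was detected on 0 perfused arrays and gave -0.01, and the others gave 1.80, 2.82 and 4.67.

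Seed relatives outside the cluster had smaller adrenal differences. rno-miR-16 differed from the other organs by 0.00 log2 units (SE 0.097), rno-miR-195 by -0.06 (SE 0.16) and rno-miR-497 by 0.21 (SE 0.16), and none of these passed the test. rno-miR-15b was lower in the adrenal gland (-0.61, SE 0.15, adjusted p = 0.000311). For the seed of miR-351, rno-miR-125a-5p was higher (1.56, SE 0.15) and rno-miR-125b-5p lower (-1.0, SE 0.15). Among the other arms, rno-miR-322* reached 232 to 284 in the adrenal gland against a mean of 42.8 in lung. rno-miR-450a* was detected on 2 perfused arrays, both from the adrenal gland, and rno-miR-503* on 0. rno-miR-351* was detected on 6 perfused arrays and on 0 of 3 adrenal arrays.

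The adrenal samples were checked against marker miRNAs of other cell types. miR-122 of liver, the 2 neuronal markers miR-124 and miR-9, and 5 epithelial markers of the miR-200 family lay at the floor on all 3 adrenal arrays, and 0 of 4 striated muscle markers was detected on all 3. Of 3 heart markers miR-499 was detected on all 3, at a mean of 26.9 (rank 11), and of 3 germ cell markers both names of miR-34b were, at 11.1 and 11.6. Smooth muscle markers (2 of 3 detected) summed to 609 to 733, and mesenchymal markers (2 of 2) to 457 to 474. miR-126 of endothelium lay between 1038 and 1343, rank 17 of 55 organs, and of 2 endocrine markers miR-7a had a mean of 706, rank 3, and miR-375 of 161, rank 18. Leukocyte markers (3 of 3 detected) summed to 261 to 292, erythroid markers (1 of 2) to 38.3 to 88.9 and kidney markers (2 of 3) to 77.2 to 94.8. The list held no marker of adrenal cortex or medulla, so the label of these samples was not checked further. In whole organs, fewer cells of a type and less RNA per cell cannot be told apart.

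Below the adrenal gland, 5 organs ranked high for the 6 members detected on all 3 arrays of at least 10 organs. Lung, testis, brown adipose tissue, skin and the tissue labelled interseptum were, with the adrenal gland, the 6 organs among the 10 highest of each of these 6 members. In testis, rno-miR-503 holds its place by signal that was called detected on 0 of 3 arrays. Brown adipose tissue gave 741, 707 and 640.1 for rno-miR-322 and 65.5, 56.1 and 61.4 for rno-miR-450a. Skin gave 349, 486 and 461 for rno-miR-322. In the 7 striated muscle and heart samples, rno-miR-322 had organ means of 279 to 479.7 and was detected on 21 of 21 arrays, with ranks from 5 to 13. rno-miR-542-5p was high in the femoris muscle too, at a mean of 33.7, rank 4 of 55. Further down the order most neighbouring organs overlapped: 47 of 54 neighbours for rno-miR-322 and 51 of 54 for rno-miR-450a had overlapping ranges, so places in the middle of the order are not distinct.

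The intestinal mucosa lay at the lower end. Over 6 mucosal samples rno-miR-322 had organ means between 8.14 (rectum) and 79.4, with ranks from 40 to 55. rno-miR-542-3p, rno-miR-542-5p, rno-miR-503 and rno-miR-450a_v15.0 were detected on 0 of 18 mucosal arrays, and rno-miR-450a on 6 of 18. In 8 samples of brain and spinal cord rno-miR-322 was detected on 24 of 24 arrays at organ means of 44.9 to 122. rno-miR-542-5p was detected on 21 of these 24 arrays, and rno-miR-503 on 3. In 4 lymphoid organs rno-miR-322 had organ means of 82.4 to 122, and rno-miR-542-5p was detected on 2 of 12 arrays. The salivary glands, with rno-miR-322 at 52.0 to 85.6, had rno-miR-503 on 0 of 9 arrays.

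Among 5 organs grouped here for their smooth muscle, rno-miR-322, rno-miR-450a and both arms of miR-542 were higher in vein and bladder than in aorta and stomach. With normexp background correction on median signals, the sign against the glandular stomach turned for the last 3 of these (rno-miR-450a, vein minus glandular stomach -0.62), while against aorta and anterior stomach no sign turned. rno-miR-351 lay at the floor in all 5. rno-miR-322 reached 264, 359.9 and 308 in vein, and 42.7, 54.3 and 23.0 in aorta, with no overlap. In bladder it reached 162, 111 and 152. In the anterior stomach it reached 34.3, 37.4 and 44.7, and in the glandular stomach 32.8, 40.6 and 31.6. Aorta and both stomach samples overlapped, while vein lay above bladder. Aorta minus vein was -3.03 log2 units (SE 0.24, adjusted p = 3.62e-22) for rno-miR-322. It was -2.72 (SE 0.34, adjusted p = 1.39e-11) for rno-miR-450a, which reached 42.2, 35.0 and 42.5 in vein and 7.62, 7.50 and 3.85 in aorta. rno-miR-542-5p reached 15.6, 20.2 and 18.1 in vein, and 3.42, 3.90 and 3.30 in aorta, where 1 of 3 arrays detected it. The aorta values lay at or near the floor, so the size of this difference (-2.34, SE 0.18) is not firm. It ran from -3.87 to 0 over 20 alternatives. rno-miR-542-3p was not well above background on any aorta array, and was at least 3.20-fold higher in vein. rno-miR-503 was at least 2.58-fold higher in vein than in aorta, by the same kind of bound.

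Of 10 pairs of these 5 organs, 7 were called different for rno-miR-322, rno-miR-542-5p and rno-miR-450a, 6 for rno-miR-503, rno-miR-542-3p and rno-miR-450a_v15.0, and 0 for rno-miR-351, against 32.1% of pairs over all miRNAs. These 39 calls became 49 with arrays scaled over all miRNAs. They became 17 with a floor 4 times as high, 17 with detection over all spots and 8 with normexp correction. Bladder and vein did not pass the test for rno-miR-542-3p (0.06, SE 0.24) or rno-miR-450a (0.40, SE 0.34), but did for rno-miR-322 (vein minus bladder 1.14, adjusted p = 2.65e-05) and rno-miR-542-5p (0.74, adjusted p = 0.000329). The marker miRNAs of these samples moved too. miR-126, the endothelial marker, was 1452 to 1746 in vein and 171 to 364 in aorta. The 2 erythroid markers summed to 156 to 208 in vein and 22.2 to 35.4 in aorta, the 3 leukocyte markers to 266 to 787 and 109 to 135. The 3 smooth muscle markers, of which miR-490 was not detected on all 3 arrays of either vessel, summed to 6536 to 13024 in vein and 13154 to 16170.0 in aorta. They summed to only 582 to 988 in the glandular stomach, where epithelial markers summed to 16305 to 22763. In bladder miR-126 was 469 to 643, against 349 to 371 in the anterior stomach. Mesenchymal markers summed to 1625 to 1869 and 777 to 959, while smooth muscle markers overlapped (19324 to 24536 and 23007 to 29489). Epithelial markers summed to 1077 to 1672 in bladder and 16.5 in aorta. The 75th percentile before scaling was 2213 to 3722 in vein, 1994 to 4472 in aorta, 4173 to 5647 in bladder and 1924 to 3032 in the anterior stomach. The part of these cell types in the differences was not tested.

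The mean of the 5 smooth muscle organs was called lower than that of the other 50 for 7 of 7 members, and for 76.4% of all miRNAs. The members' median log2 difference was -0.64 against -0.44 over all miRNAs. The set was mixed. For rno-miR-322 the adrenal gland exceeded the mean of all other organs by 4.68 log2 units. It exceeded vein by 3.26 and bladder by 4.40, but the anterior stomach by 6.26, aorta by 6.29 and the glandular stomach by 6.40. Vein and bladder thus lay above that mean. The errors measure the spread among arrays of an organ, not among the 5 organs. The call of rno-miR-351, at the floor in all 5, follows from its adrenal level among the other 50. The lower direction of the set depends on the scaling. With arrays scaled over all miRNAs the members' median was 0.12, with 1 member called lower and 3 higher. With quantile normalization it was 0.12, with 1 lower and 2 higher, and in the values normalized by the authors it was 0.08, with 1 lower and 0 higher. The median of all miRNAs itself moved from -0.44 to -0.04 with the scaling over all miRNAs. The difference between vein and aorta kept its sign in all 20 alternatives for rno-miR-322 (20 called) and rno-miR-450a (19 called). For rno-miR-450a it shrank to -0.12 in 1 alternative. rno-miR-542-5p was called in 19 of 20, rno-miR-542-3p and rno-miR-450a_v15.0 in 16 of 19 and rno-miR-503 in 15 of 19, and for these 4 the difference was 0 in at least 1 alternative.

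**Figure D3:**
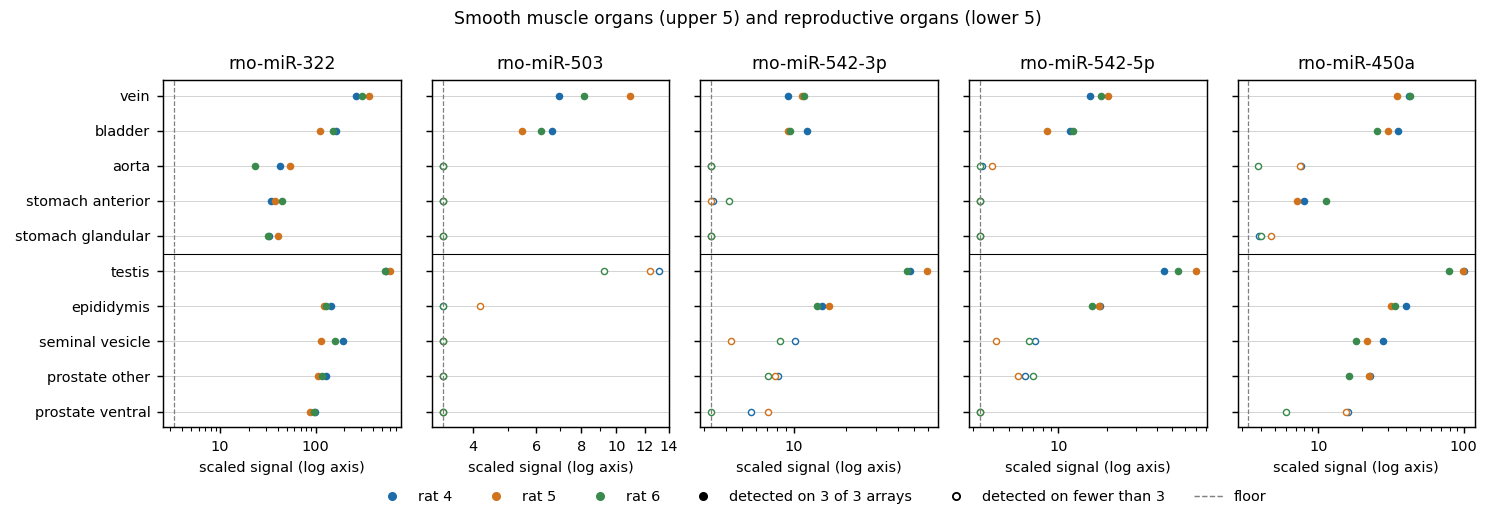
Scaled signal intensity (log axis) of 5 members in 5 smooth muscle organs (upper) and 5 reproductive organs (lower); each point is 1 rat, open where the member was detected on fewer than 3 arrays of the organ, and the dashed line is the floor. Vein and bladder lie above aorta and stomach, and testis lies above the other reproductive organs, for rno-miR-322 at 532 to 599. rno-miR-503 was detected on no array of the reproductive organs, so its order there carries no measured difference.

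In the reproductive organs the testis was highest. rno-miR-322 reached 539, 599 and 532 in testis, 145, 121 and 129 in epididymis, and 195, 114 and 158 in seminal vesicle. It reached 129, 106 and 118 in the part of the prostate labelled other, and 98.5, 87.8 and 96.3 in the ventral prostate. The testis did not overlap the other 4 organs. Testis minus epididymis was 2.08 log2 units (SE 0.24, adjusted p = 1.64e-13) for rno-miR-322, 1.78 (SE 0.24) for rno-miR-542-3p, 1.67 (SE 0.18) for rno-miR-542-5p and 1.41 (SE 0.34, adjusted p = 0.000242) for rno-miR-450a. rno-miR-503 read 13.1, 12.4 and 9.23 in testis, yet was detected on 0 of 3 testis arrays, so no fold is given.

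The epididymis came second for both arms of miR-542, except with normexp correction, where seminal vesicle minus epididymis turned to 0.26 for rno-miR-542-3p and 0.23 for rno-miR-542-5p. rno-miR-542-3p read 14.6, 15.9 and 13.6 there and 8.11, 7.76 and 7.09 in the other prostate (prostate minus epididymis -0.94, adjusted p = 0.000464). rno-miR-542-5p read 18.0, 17.7 and 16.1 in epididymis and was not well above background on any array of seminal vesicle or of either part of the prostate. It was at least 2.37-fold higher in epididymis than in seminal vesicle, and at least 7.55-fold higher in testis than in seminal vesicle. These bounds hold for the main processing only. Over 20 alternatives, seminal vesicle minus testis ran from -6.51 to -0.97 log2 units. For rno-miR-322 the epididymis did not stand second in this way. Epididymis, seminal vesicle and the other prostate overlapped, and seminal vesicle minus epididymis was 0.21 (SE 0.24, limma adjusted p = 0.647). Of 10 pairs of reproductive organs, 9 were called for rno-miR-542-5p, 8 for rno-miR-542-3p, 7 for rno-miR-450a, 6 for rno-miR-450a_v15.0, 5 for rno-miR-322, 4 for rno-miR-503 and 0 for rno-miR-351, against 38.7% of pairs over all miRNAs. All 4 calls of rno-miR-503, 2 of those of rno-miR-542-5p and 1 of those of rno-miR-450a_v15.0 lay between organs where the member was detected on no array, so they carry no measured difference. Over all members 39 pairs were called, against 42 with a floor 4 times as low, 24 with the authors' table and 16 with normexp correction.

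The testis samples carried their marker miRNAs: the 3 names of miR-34b and miR-34c, known from germ cells, summed to 39473 to 49276 there, to 1130 to 1669 in epididymis and to 17.0 to 38.0 in seminal vesicle. Epithelial markers ran the other way, at 43.8 to 70.3 in testis and 12547 to 14443 in epididymis. The 2 erythroid markers ranged from 13.5 to 649 among the testis arrays. The 75th percentile before scaling was 510.1 to 636 in testis and 1080 to 1503 in epididymis. The part of these measures in the members' levels was not tested. Taken as a set against the other 50 organs, the reproductive organs were called higher for 5 members, where 33.9% of all miRNAs were. They were called lower for rno-miR-503 and rno-miR-351, where 49.9% were. The set was mixed. For rno-miR-542-5p the adrenal gland exceeded the mean of all other organs by 4.75 log2 units. It exceeded testis by 2.04 and epididymis by 3.71, but the other prostate by 5.17, seminal vesicle by 5.27 and ventral prostate by 6.09. Seminal vesicle and both parts of the prostate thus lay below that mean. The errors measure the spread among arrays of an organ, not among the organs of the set. The lower call of rno-miR-351 follows from its adrenal level among the other 50. The members' median difference was 0.31, against -0.13 over all miRNAs. It was -0.05 with the scaling over all miRNAs, where 1 member was called higher and 4 lower, and -0.20 with the authors' table, so this direction also depends on the scaling.

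Of the 7 members, 6 had similar profiles across organs. Over the 55 organ means of log2 signal, the 15 pairs of the 6 members detected in at least 10 organs had Pearson's r between 0.78 and 0.95, with a median of 0.88, and Spearman's rho with a median of 0.87. rno-miR-542-3p and rno-miR-450a gave 0.95, both arms of miR-542 gave 0.95, and rno-miR-322 and rno-miR-503 gave the lowest value, 0.78. Without the adrenal gland the median was 0.85, and over organs where both members of a pair were detected on all 3 arrays it was 0.88. With each rat taken alone the median was 0.888, 0.825 and 0.837 in rats 4, 5 and 6. Within an organ, where only differences among its 3 rats remain, r ran from 0.243 to 0.938 over the 15 pairs, with a median of 0.592 over arrays where both members were detected. rno-miR-351, at or near the floor outside the adrenal gland, had r of 0.36 to 0.61 with the other 6, and of 0.19 to 0.38 without the adrenal gland. The points share arrays, scaling and floor, and organs at the floor for both members count among them, so r is a description over 55 organs. Over the 11 organs where both were detected, rno-miR-322 and rno-miR-503 gave 0.79, and the lowest pair was then rno-miR-503 and rno-miR-450a at 0.72.

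**Figure D4:**
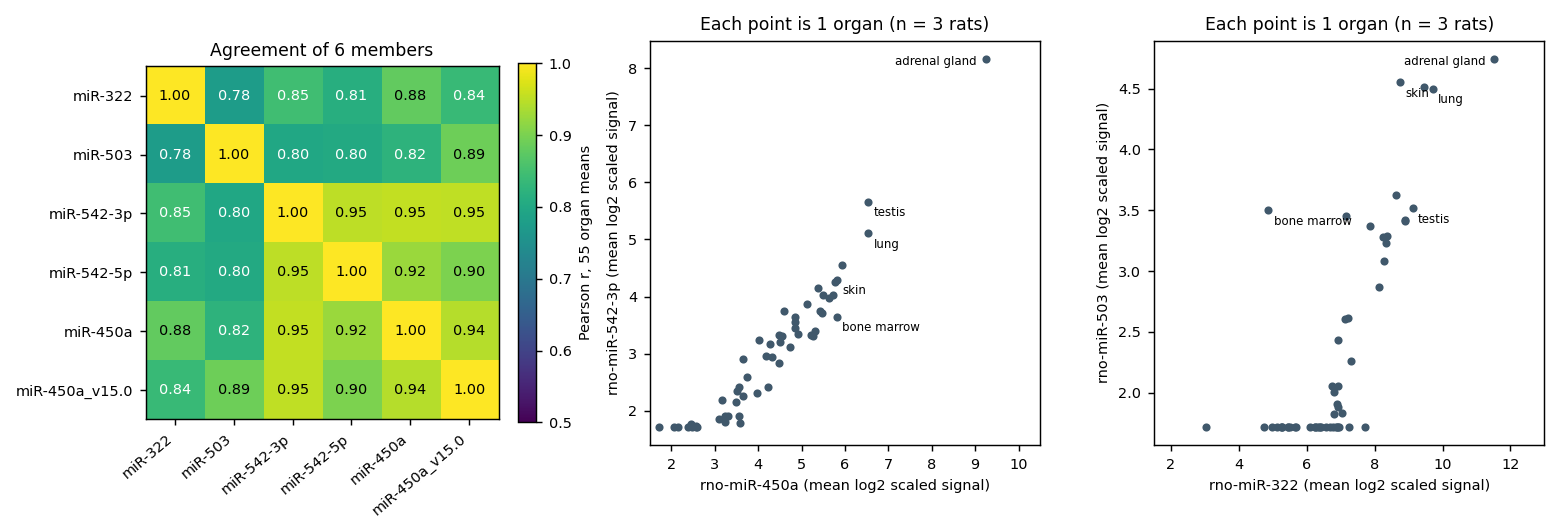
Left, Pearson's r between 6 members over 55 organ means of log2 scaled signal; middle and right, organ means (n = 3 rats) of rno-miR-542-3p against rno-miR-450a and of rno-miR-503 against rno-miR-322. The first pair lies along one line (r = 0.95) with the adrenal gland at its end, while in the second many organs lie at the floor of rno-miR-503 and bone marrow lies off the line (r = 0.78).

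The balance between rno-miR-322 and rno-miR-450a varied between organs by more than between rats. Relative to the median of 38 organs where both were detected on all 3 arrays, rno-miR-322 minus rno-miR-450a ran from -0.95 to 1.07 log2 units, with an SD over organs of 0.47 against a median SD among rats of 0.25. The heart stood at the top, with the interventricular septum at 1.20, 1.08 and 0.92 in rats 4, 5 and 6 and the atrium at 1.18, 1.15 and 0.76. Ischial nerve stood at the bottom, at -1.06, -0.89 and -0.89, followed by kidney at -0.60, -0.78 and -0.93 and epididymis at -0.77, -0.67 and -0.69. The adrenal gland lay at -0.46, -0.62 and 0.05, inside the range of the other organs. Against rno-miR-503, by contrast, rno-miR-322 stood highest in the adrenal gland of 11 organs, at 0.88, 2.36 and 2.11, with the heart atrium next at a mean of 0.49.

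Set against rno-miR-542-5p over 25 organs, rno-miR-322 again stood highest in heart. The septum came to 1.72 (SD 0.12) and the atrium to 1.69 (SD 0.057), while the lumbar spinal cord was lowest at -1.05, ischial nerve came to -0.95 (SD 0.22) and kidney to -0.39, and the SD over organs was 0.82 against 0.12 among rats. In heart, rno-miR-322 at 478, 414 and 547 (septum) ranked 5 of 55 organs, whereas rno-miR-542-5p at 10.6, 10.0 and 14.3 ranked 22 and rno-miR-542-3p at 9.85, 7.63 and 13.4 ranked 21. These values share rno-miR-322 and are not independent of those against rno-miR-450a. Bone marrow could not enter this measure: rno-miR-450a was detected on 3 of 3 arrays there, at 58.9, 38.7 and 76.6 (rank 5), while rno-miR-322 read 52.5, 22.9 and 20.5 and was detected on 1 of 3 (rank 52).

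**Figure D5:**
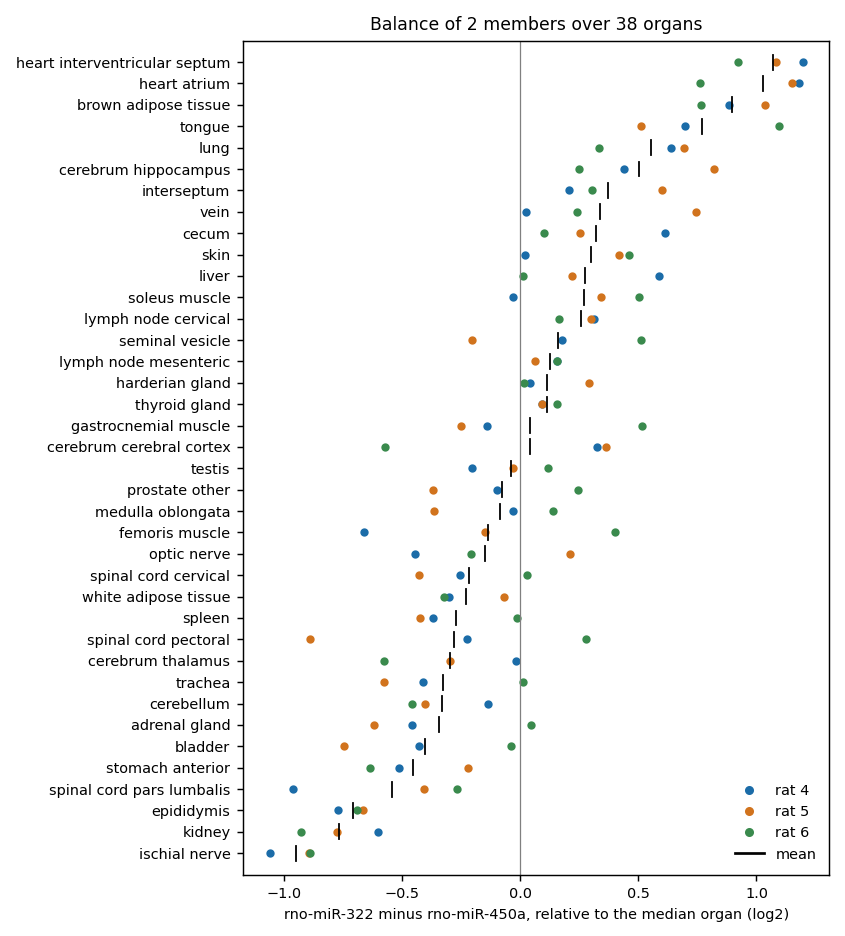
rno-miR-322 minus rno-miR-450a (log2), relative to the median organ, in 38 organs where both were detected on all 3 arrays; points are single rats and bars the means. Heart septum and atrium lie at 0.76 to 1.20 and ischial nerve at -1.06 to -0.89, with no overlap.

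Arms of one hairpin also parted between organs. Each pair below has its own set of organs, and the spreads were not tested against each other. The arms rno-miR-322 and rno-miR-322* ranged from -1.22 (ischial nerve) to 1.07 (brown adipose tissue) over 27 organs, with an SD over organs of 0.60 and a median SD among rats of 0.18. rno-miR-450a and rno-miR-450a_v15.0 stayed within -0.13 to 0.12 log2 units of their median difference over 10 organs, with an SD over organs of 0.073 and a median SD among rats of 0.084. The arms rno-miR-542-3p and rno-miR-542-5p, measured by different probes, ranged from -0.56 (vein) to 0.54 (adrenal gland) over 18 organs, with a median SD among rats of 0.16. In the adrenal gland the 3′ arm was the higher in all 3 rats relative to the median organ, by 0.70, 0.60 and 0.33.

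For each of the 6 members the 6 nearest miRNAs among 277 others detected in at least 10 organs were the 5 other members and rno-miR-322*, with 0.776 the lowest r among them. Next came rno-miR-126* (r = 0.75) and rno-miR-126 (0.74) for rno-miR-322, and rno-miR-126 for rno-miR-450a (0.72), rno-miR-503 (0.62), rno-miR-450a_v15.0 (0.61) and rno-miR-542-3p (0.59). For rno-miR-542-5p it was rno-miR-30a* (0.58). Without the adrenal gland, rno-miR-126* and rno-miR-126 gave 0.778 and 0.775 with rno-miR-322, above its r with rno-miR-503 (0.737) and rno-miR-542-5p (0.768). rno-miR-195, rno-miR-497, rno-miR-451, rno-miR-34a and rno-miR-125a-5p filled other places, at r between 0.43 and 0.56, over the same 55 organ means.

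Perfusion, which removes blood from an organ, was compared in 5 organs. rno-miR-322 read 698, 784 and 868 in lungs that were not perfused and 786, 865 and 868 in perfused lungs, and the groups overlapped. In 24 of 35 comparisons the member was detected on all 6 arrays, and there perfused minus not perfused lay between -0.01 and 0.25 log2 units, with SEs of 0.13 to 0.35. By limma, 0 of 35 comparisons were called, and 0 had an unadjusted p under 0.05, while over all 1205 comparisons 0.249% were called and 93 had an unadjusted p under 0.05. With quantile normalization 1 was called.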

How the data were processed

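Total RNA labelled with Cy3 was hybridized by the authors to an Agilent array with probes of miRBase 15 and 16. The authors deposited background-corrected signal intensities per spot from Agilent Feature Extraction 10.7.3 and a table of normalized intensities per miRNA, used here as an alternative. Outlier spots (1.63% to 6.42% per array) were dropped, and spots were averaged within and then over probe sequences. Each array was divided by its 75th percentile of 51 miRNAs that no array missed, and multiplied by 1784, the mean of those percentiles. A floor of 3.30, reached by 64.1% of values, was applied before log2. Organ means of the perfused arrays were fitted with limma 3.58.1 in R 4.3.3, without a block. Benjamini-Hochberg adjustment ran over each family of organ contrasts and all 433 miRNAs tested. Perfusion was fitted apart, on the organs sampled under both conditions, with adjustment over 5 contrasts and 241 miRNAs tested. In data simulated for the adrenal contrast, the test called 97% of miRNAs with a planted 1 log2 unit, 99% with 2, and 1.29% of the others. The simulation drew independent normal noise around organ means and applied no floor. Its rates therefore cannot be carried over to members at the floor in many organs.

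Samples with one rat number come from one animal. Their residuals correlated at 0.057 on average, those of different rats at -0.028. For 8 arrays the labels give 2 rat numbers, and the title's was used. Arrays lay on 23 slides scanned on 3 days. Members, organ sets, companions and markers were chosen with earlier results of these data known. Beyond the members, the text names the other arms, fixed seed relatives, the 5 miRNAs most correlated with each member, and markers. Python 3.11.15 with numpy 2.4.6, pandas 2.3.3 and matplotlib 3.10.9 was used. Alternatives changed the scaling, floor, spot summary, background, filter and blocks, or left out rats, arrays or the pancreas.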

Additional observations from a re-analysis of the deposited data

How the results depend on the processing

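The adrenal difference of rno-miR-322, both arms of miR-542 and both names of miR-450a kept its direction and call in each alternative tried (highest adjusted p 0.0028, limma). The range was 3.64 to 4.84 log2 units for rno-miR-322, 2.52 to 5.25 for rno-miR-450a and 0.97 to 6.19 for rno-miR-450a_v15.0. It was 1.71 to 6.25 for rno-miR-542-3p and 1.41 to 5.87 for rno-miR-542-5p, so size and order depend on the processing. With normexp background correction on median signals, chosen after seeing the data because the files used held no mean signal, the difference became -0.22 for rno-miR-503 and -0.26 for rno-miR-351; the cause was not tested. That correction also gave 237 adrenal calls of 378, 8 pairs of smooth muscle organs and 16 of reproductive organs, against 375, 39 and 39. Where only miRNAs detected on 50% of the arrays were tested, 3 members remained, with 3 called in each organ test, 162 adrenal calls, and 21 and 22 pairs. Scaling over all miRNAs left 1 member called lower in smooth muscle (3 higher) and 1 higher in reproductive organs (4 lower), quantile normalization 1 (2) and 2 (4), and the values normalized by the authors 1 (0) and 1 (3), with 24 reproductive pairs. A floor 4 times as high, and detection over all spots (also chosen after seeing the data, as were r without the adrenal gland and over detected organs), each left 17 smooth muscle pairs. Quantile normalization called 1 comparison of perfusion. The median r moved from 0.88 to 0.82 with the authors' table, 0.73 with the higher floor, 0.92 with normexp, 0.84 with outlier spots kept and 0.75 with detection over all spots.

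With rat as a replicate block, 7 members were called in the adrenal gland, 375 comparisons and 40 pairs in each organ set, and the counts of members called over all organs, in smooth muscle and in reproductive organs were those without it; perfused and other rats differ, so no block applies there. Without 1 replicate each, members called in reproductive organs were 4 to 5, smooth muscle pairs 38 to 39 and reproductive pairs 34 to 40. Faint members near background limit what these arrays can resolve.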
